A study of Homo sapiens with 6 samples.

Results

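The mitochondrially encoded genes were followed in the human neuroblastoma line SK-N-BE, which takes on neuronal traits under retinoic acid, upon depletion of the long noncoding RNA CyCoNP. They were defined as every gene on the mitochondrial chromosome of GRCh38 whose symbol starts with MT-, matched by Ensembl identifier, and comprised 37 of the 60676 genes in the count table. They consist of 13 mRNAs, 22 tRNAs and 2 rRNAs, which are described apart. RNA sequencing was performed on 6 libraries, all from cells kept with 10 μM retinoic acid for 1.5 days. In 3 of them the cells had received a scrambled control siRNA (si-SCR), and in the other 3 a pool of siRNAs against CyCoNP (si-CyCoNP). No untransfected or undifferentiated cells were compared here. The study uses these cells as a model of differentiating human neurons, and nothing in the labels states whether the replicates were separate cultures, so p-values measure the spread between these libraries only.

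Mitochondrial DNA is a small circle that is transcribed from both strands into long precursors. The mRNAs and rRNAs lie end to end on these precursors and are mostly separated by tRNAs, so that cutting out the tRNAs, by mitochondrial RNase P at the 5′ end and ELAC2 at the 3′ end, also frees the mRNAs and rRNAs. The mRNAs encode core subunits of respiratory complexes I, III, IV and V, while the tRNAs and rRNAs serve the mitochondrial ribosomes that translate them, and all other parts of these machines are imported from the cytosol. Genes read in the direction of the reference sequence are called here the heavy-strand unit, with 12 mRNAs, 14 tRNAs and both rRNAs. The light-strand unit, read in the opposite direction, holds MT-ND6 and 8 tRNAs.

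The class in which members fell furthest was the tRNAs, and the 5 tRNA genes with at least 10 counts in every library are shown because the results on this class rest on them. The sequences are from GRCh38, 5′ to 3′ on the strand of each gene and in DNA letters, with the anticodon in capitals. MT-TT (threonine), MT-TW (tryptophan) and MT-TP (proline) fell in si-CyCoNP, whereas MT-TI (isoleucine) and MT-TQ (glutamine) did not pass the test. MT-TT lies at chrM:15888-15953, MT-TW at chrM:5512-5579 and MT-TI at chrM:4263-4331, all on the plus strand. MT-TP lies at chrM:15956-16023 and MT-TQ at chrM:4329-4400, both on the minus strand.
MT-TT: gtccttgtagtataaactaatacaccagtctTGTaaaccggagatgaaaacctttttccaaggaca
MT-TW: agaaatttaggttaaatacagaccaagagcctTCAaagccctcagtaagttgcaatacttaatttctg
MT-TP: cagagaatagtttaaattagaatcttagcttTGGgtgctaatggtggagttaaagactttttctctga
MT-TI: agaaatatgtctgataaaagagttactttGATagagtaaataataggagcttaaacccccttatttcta
MT-TQ: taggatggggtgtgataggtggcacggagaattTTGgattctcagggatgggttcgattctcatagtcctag

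Between 3762009 and 4799407 fragments were counted per library, far below the number of reads that the study states to have sequenced. Whether duplicate reads had been removed before counting is not clear from the sources used here, so how closely counts, shares and fold changes follow the number of RNA molecules is not known. The targeted gene, LINC02381 (ENSG00000250742), from which CyCoNP is transcribed, was counted 274, 208 and 315 times in si-SCR against 20, 30 and 12 times in si-CyCoNP, so that the groups were far apart. All 9 neuroblastoma markers examined had a count in every library, with a summed level of 1844 to 1984 FPKM in si-SCR against 1681 to 1808 FPKM in si-CyCoNP (fragments scaled to gene length and library total). Summed levels of the markers of other cell types were 13.9 to 19.0 and 17.5 to 24.1 FPKM for 5 mesenchymal genes, of which COL1A2 was at 0 in every library, 1.58 to 1.96 and 2.49 to 5.44 FPKM for 4 immune genes, with CD3E at 0, and 0.430 to 0.671 and 0.171 to 0.893 FPKM for 3 epithelial genes, with KRT5 and CDH1 at 0, in si-SCR and si-CyCoNP respectively. Their part in the results was not tested. Replicate 3 of si-SCR stood apart from the other si-SCR libraries on the first principal component of all genes (-20.9, against -34.8 and -35.5), and results that rest on it are given with and without it.

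Mitochondrially encoded genes took 8.21%, 8.18% and 7.06% of all counts in si-SCR against 7.25%, 7.51% and 7.29% in si-CyCoNP. Replicate 3 of si-SCR was the lowest of all and the groups overlapped. The mean share was 7.81% ± 0.655 in si-SCR against 7.35% ± 0.141 in si-CyCoNP (SD, n = 3). Nearly all of it was mRNA. The tRNAs together took 0.0101% ± 0.000858 in si-SCR against 0.00604% ± 0.000776 in si-CyCoNP (SD, n = 3), and every si-CyCoNP library lay below every si-SCR library. The rRNAs took 0.00300% ± 9.19e-05 and 0.00299% ± 0.000210 (SD, n = 3), where the groups overlapped. In bulk RNA, fewer mitochondria per cell, fewer transcripts per mitochondrion and more RNA of other kinds cannot be told apart.

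To place the members against the rest of the transcriptome, all 13966 genes with a mean of at least 1 FPKM in either group were tested with the quasi-likelihood test of edgeR, and a gene was called changed at an adjusted p under 0.05. By this rule 28.4% of all genes changed, 14.2% lower and 14.2% higher in si-CyCoNP. With a log2 fold change below -1 as well, 2.98% were lower, and with one above 1, 2.28% were higher. Every si-CyCoNP value lay under every si-SCR value in normalised level for 20.0% of genes, and the groups did not overlap in either direction for 40.2%. With library totals alone as the scaling, 1575 genes were lower and 2454 higher, against 1990 and 1981 in the TMM scaling used throughout. Of the 37 members, 29 passed the expression filter, namely all mRNAs, both rRNAs and 14 tRNAs. The other 8 tRNAs, MT-TL1, MT-TN, MT-TC, MT-TK, MT-TG, MT-TR, MT-TH and MT-TL2, had no count in any library, which allows up to 3 counts in each, or 0.625 to 0.797 CPM, counts scaled to the library total (counting error only). MT-TK and MT-TN lie wholly, and MT-TC for nearly its whole length, in stretches with an exact copy on chromosome 1. Fragments inside such a stretch are dropped, so for these tRNAs the limit does not hold for the level. Copies shorter than 100 bases were not searched, so whether the limit holds for the level of the others is not known.

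**Figure D1:**
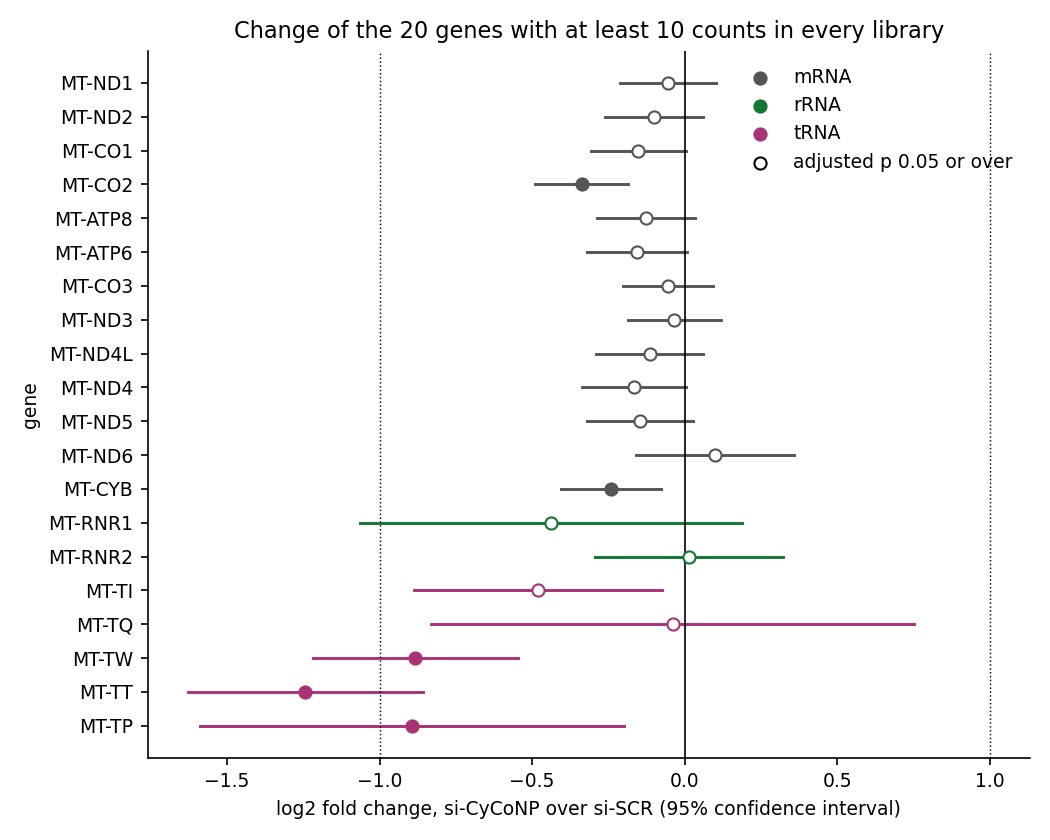
Log2 fold change of si-CyCoNP over si-SCR (horizontal axis) for the 20 mitochondrially encoded genes with at least 10 counts in every library, as points with 95% confidence intervals from edgeR, grouped by class and ordered along the genome. Filled points mark an adjusted p under 0.05, and dotted lines mark log2 fold changes of -1 and 1. The 5 filled points, MT-CO2, MT-CYB, MT-TW, MT-TT and MT-TP, all lie to the left of 0, and MT-TT alone lies beyond -1.

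The mRNAs were examined next. Of the 13 tested, 2 were lower (MT-CO2 and MT-CYB), a share close to the 14.2% of all genes, none was higher, and none passed a log2 fold change of -1 or 1. Their median log2 fold change was -0.13 and their range -0.34 to 0.10, with the median of all genes at 0.01, and 12 of the 13 estimates lay below 0. Replicate 3 of si-SCR held the lowest normalised level among the si-SCR libraries for all 12 mRNAs of the heavy-strand unit. Without that library 9 mRNAs were lower and the median of the heavy-strand mRNAs was -0.23, against -0.14 with it. The median of all genes was then 0.004. The share of all genes called lower in that fit is not given here, so the count of 9 has no background beside it. Of the 13 mRNAs, MT-CO2 alone had groups that did not overlap in normalised level, where 20.0% of all genes were lower without overlap.

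MT-CO2 encodes COX2, the subunit of cytochrome c oxidase (complex IV) that takes electrons from cytochrome c, and lies at chrM:7586-8269. It had 52227, 47305 and 52504 counts in si-SCR against 46399, 41801 and 42035 in si-CyCoNP. As normalised CPM, on TMM-scaled library totals, these were 12650, 12974 and 10971 in si-SCR against 9443, 9527 and 9990 in si-CyCoNP, so that replicate 3 of si-SCR was nearest to the si-CyCoNP libraries and still above them. The mean was 12199 ± 1075 in si-SCR against 9653 ± 295 in si-CyCoNP (SD, n = 3), or 79.1% of the control. The log2 fold change was -0.34 ± 0.0736 (SE; edgeR quasi-likelihood test, adjusted p = 0.000898). It was -0.41 without replicate 3 of si-SCR and -0.27 with library totals alone. On the log2(FPKM + 1) scale the limma test gave -0.27 with an adjusted p of 0.0502, the only alternative of 15 in which MT-CO2 missed the threshold.

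MT-CYB encodes cytochrome b, the mitochondrially encoded subunit of complex III, and lies at chrM:14747-15887, directly before MT-TT. Its normalised level was 5561, 6131 and 4798 CPM in si-SCR against 4516, 4829 and 4607 CPM in si-CyCoNP. Replicate 2 of si-CyCoNP lay just above replicate 3 of si-SCR, so the groups overlapped. The log2 fold change was -0.24 ± 0.0797 (SE; edgeR, adjusted p = 0.0237). The call was lost without replicate 2 of si-SCR, where the estimate was -0.15 (edgeR, adjusted p = 0.174). It was also lost without replicate 1 or replicate 3 of si-CyCoNP, with both scalings by library totals and by limma on log2(FPKM + 1).

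The other 10 mRNAs of the heavy-strand unit did not pass the test, with adjusted p-values of edgeR from 0.142 to 0.780. Of the NADH dehydrogenase (complex I) subunits, MT-ND4 was estimated at -0.17, MT-ND5 at -0.15, MT-ND4L at -0.11, MT-ND2 at -0.10, MT-ND1 at -0.06 and MT-ND3 at -0.03 on the log2 scale. The ATP synthase (complex V) subunits MT-ATP6 and MT-ATP8 were at -0.16 and -0.13. The complex IV subunits MT-CO1, the catalytic core, and MT-CO3 were at -0.15 and -0.06. The 95% intervals of all 10 overlapped that of MT-CO2, -0.489 to -0.186, and their lowest bound was -0.336 for MT-ND4. The overlap was smallest for MT-ND3, with a lower bound of -0.1864 against an upper bound of -0.1862 for MT-CO2. Overlap of separate intervals neither shows nor excludes a difference, and edgeR did not test MT-CO2 against these 10 mRNAs. The estimates of MT-ND1, MT-CO3 and MT-ND3 turned sign in 3 or more of the 15 alternatives, and those of the other 7 in none. Without replicate 3 of si-SCR, MT-ND2, MT-CO1, MT-ATP8, MT-ATP6, MT-ND4L, MT-ND4 and MT-ND5 also passed the threshold.

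MT-ND6, a complex I subunit and the only mRNA of the light-strand unit, had 233, 155 and 224 counts in si-SCR against 242, 263 and 199 in si-CyCoNP. The groups overlapped, with the highest value in a si-CyCoNP library and the lowest in a si-SCR library. Its log2 fold change was 0.10 with a 95% interval of -0.16 to 0.36 (edgeR, adjusted p = 0.600), and the estimate was below 0 in 1 of 15 alternatives. Per length it was the least abundant mRNA in every library, at 90.3 ± 12.5 FPKM in si-SCR against 102 ± 14.1 FPKM in si-CyCoNP (SD, n = 3). Its heavy-strand neighbour MT-ND5, on the opposite strand next to it, stood at 2908 ± 379 and 2760 ± 75.1 FPKM (SD, n = 3).

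**Figure D2:**
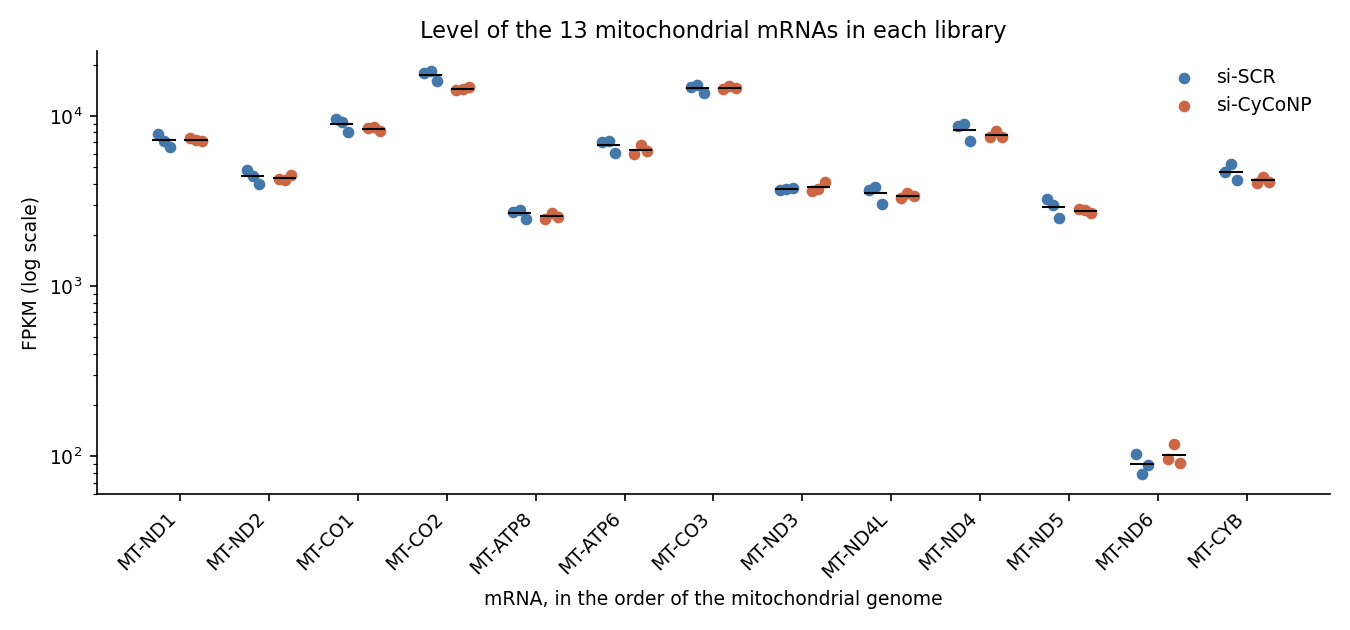
Level of the 13 mitochondrial mRNAs in FPKM (vertical axis, log scale) in each of the 3 si-SCR and 3 si-CyCoNP libraries, in genome order, with a bar at the mean of each group. MT-CO2 is the only gene whose si-CyCoNP points all lie below its si-SCR points, and MT-ND6 lies far below all other mRNAs.

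The order of the mRNA levels per length was nearly the same in every library. MT-CO2 led the 3 si-SCR libraries with 17779, 18384 and 16049 FPKM, and MT-CO3 was second with 14724, 15234 and 13590 FPKM. In si-CyCoNP MT-CO2 had 14134, 14381 and 14822 FPKM and MT-CO3 had 14304, 14993 and 14655 FPKM, so that MT-CO3 led in replicates 1 and 2 and MT-CO2 in replicate 3. MT-CO1, MT-ND4, MT-ND1 and MT-ATP6 followed as the third to sixth in all 6 libraries. MT-ND2 and MT-CYB exchanged places between libraries of both groups, so these neighbours in the order do not differ beyond their spread. MT-ND4L and MT-ND3 exchanged places in si-SCR, whereas in si-CyCoNP MT-ND3 was ahead in all 3 libraries, with 3599, 3737 and 4079 FPKM against 3287, 3535 and 3395 FPKM. MT-ND5, MT-ATP8 and MT-ND6 closed the order in all 6 libraries. Within the heavy-strand unit the mean level ranged over 6.52-fold in si-SCR, from MT-ATP8 to MT-CO2, and over 5.71-fold in si-CyCoNP, from MT-ATP8 to MT-CO3. Fragments that touch both genes of an overlapping pair, as MT-ATP8 and MT-ATP6 or MT-ND4L and MT-ND4, are not counted for either, and neither are fragments that reach from an mRNA into a tRNA, so the levels of short genes are the most underestimated.

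Ratios within a library do not depend on scaling, and were used to describe MT-CO2 beside genes of the same precursor. The ratio of MT-CO2 to MT-CO3 counts was 1.05, 1.05 and 1.03 in si-SCR against 0.862, 0.837 and 0.882 in si-CyCoNP, with no overlap between the groups. It was 1.05 ± 0.0132 in si-SCR against 0.860 ± 0.0228 in si-CyCoNP (SD, n = 3; exact permutation test, two-sided, p = 0.1). The ratio of MT-CO2 to MT-CO1 was 0.867 ± 0.0357 and 0.761 ± 0.0384, and that to MT-ATP6 was 2.61 ± 0.0624 and 2.30 ± 0.131 (SD, n = 3; exact permutation test, two-sided, p = 0.1 for each). Over all 11 other mRNAs of the heavy-strand unit the mean ratio was lower in si-CyCoNP, and the groups did not overlap for 9 of them. MT-CO2 already had the lowest log2 fold change of all mRNAs in these same libraries, and the 11 ratios share its counts. Lower mean ratios follow from that and are no separate test of whether MT-CO2 moved apart. They overlapped for MT-CO2 over MT-CYB, at 2.23 ± 0.0952 in si-SCR against 2.08 ± 0.0984 in si-CyCoNP, and over MT-ND5, at 2.27 ± 0.183 in si-SCR against 1.98 ± 0.102 in si-CyCoNP (SD, n = 3; exact permutation test, two-sided, p = 0.2 for each). The ratios of MT-CO1 to MT-CO3, 1.21 ± 0.0599 and 1.13 ± 0.0346, and of MT-ATP6 to MT-CO3, 0.401 ± 0.0143 and 0.374 ± 0.0133, overlapped (SD, n = 3; exact permutation test, two-sided, p = 0.2 for each). Here 3 libraries against 3 cannot give a p under 0.1. Over the 20 ratios computed in all, those with tRNAs and rRNAs included, the adjusted p was 0.167 for the 12 whose groups did not overlap.

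**Figure D3:**
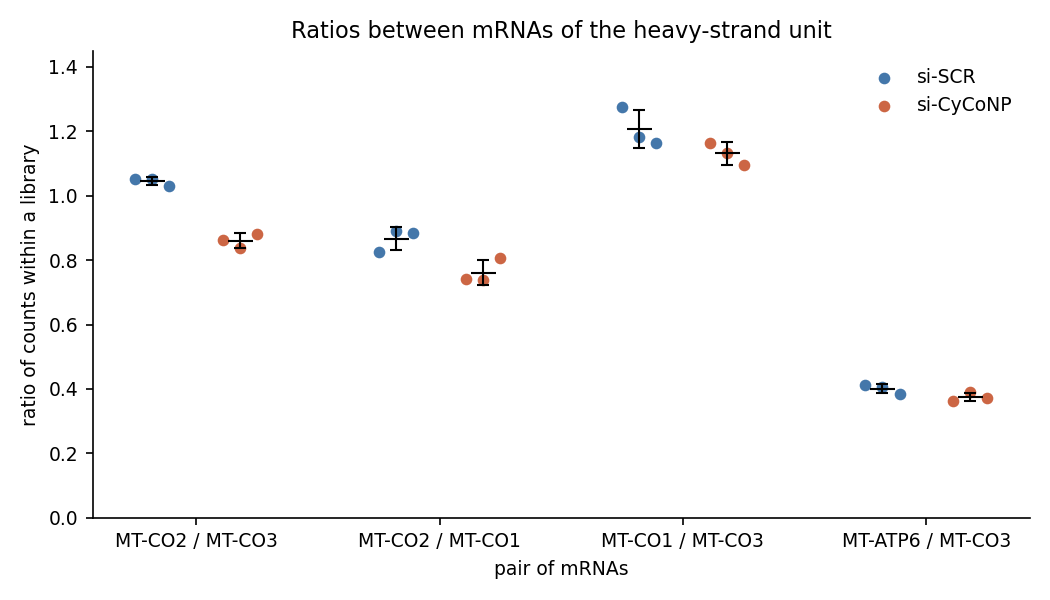
Ratio of the counts of a pair of mRNAs (vertical axis, starting at 0) in each si-SCR and si-CyCoNP library, with the mean and SD of each group. For MT-CO2 over MT-CO3 and MT-CO2 over MT-CO1 all si-CyCoNP points lie below all si-SCR points, while for MT-CO1 over MT-CO3 and MT-ATP6 over MT-CO3 the groups overlap.

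Copies of mitochondrial DNA in the nuclear genome take fragments away from some of these genes, because fragments that match several places are dropped. Windows of 100 bases with an exact copy on a nuclear chromosome made up 27.9% of MT-CO1, 26.1% of MT-ND2, 21.2% of MT-RNR1, 11.9% of MT-ATP6, 10.97% of MT-ND1, 4.67% of MT-CO3 and 2.39% of MT-CO2, and none of the other mRNAs or of MT-RNR2. Of the 25 exact copies of at least 100 bases, 21 lay in a single stretch of chromosome 1, the longest with 279 bases. A fragment that lies wholly in such a stretch is not counted for the mitochondrial gene in either group. The tRNA genes are shorter than a window, and MT-TQ, MT-TA, MT-TN, MT-TS1 and MT-TK lie wholly in copied stretches. MT-TI, MT-TM, MT-TD, MT-TC and MT-TY lie in them for most of their length. Copies shorter than 100 bases were not searched.

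The annotated copies in that stretch were counted too. MTATP6P1, the copy of MT-ATP6, had 2288, 2274 and 2244 counts in si-SCR against 2177, 2288 and 1925 in si-CyCoNP, with overlapping groups and an estimate of -0.21 on the log2 scale (edgeR, adjusted p = 0.0889). MTND2P28, the copy of MT-ND2, was at -0.14 (edgeR, adjusted p = 0.305) and MTCO1P12 at -0.11 (edgeR, adjusted p = 0.769). MTCO2P12, the copy of MT-CO2, had 6, 3 and 2 counts in si-SCR against 10, 8 and 6 in si-CyCoNP. MTND1P23 and MTCO3P12 had at most 6 counts in a library and MTATP8P1 at most 1, so that of the 7 copies 6 were tested and none changed by edgeR.

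The tRNAs were then considered. Of the 14 tested, MT-TT, MT-TW and MT-TP were lower, where 14.2% of all genes were, and none was higher, and MT-TT was the only member of any class that passed a log2 fold change of -1 as well. The groups did not overlap for these 3 and for MT-TD, which had at most 4 counts in a library, where 20.0% of all genes were lower without overlap. Of the 22 tRNAs, 5 had at least 10 counts in every library and 12 had at most 3 counts in every library.

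MT-TT, the threonine tRNA, had 94, 105 and 140 counts in si-SCR against 46, 45 and 62 in si-CyCoNP. Its normalised level was 22.8, 28.8 and 29.3 CPM in si-SCR against 9.36, 10.3 and 14.7 CPM in si-CyCoNP, with every si-CyCoNP library well below every control. The mean was 26.9 ± 3.62 CPM in si-SCR against 11.5 ± 2.88 CPM in si-CyCoNP (SD, n = 3), or 42.3% of the control. The log2 fold change was -1.24 ± 0.188 (SE; edgeR, adjusted p = 9.47e-06), and it passed the threshold in all 15 alternatives, between -1.46 and -1.11. Relative to MT-CYB, the mRNA directly before it on the same precursor, the ratio of counts was 0.00496 ± 0.00103 in si-SCR against 0.00246 ± 0.000635 in si-CyCoNP (SD, n = 3; exact permutation test, two-sided, p = 0.1), without overlap.

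MT-TW, the tryptophan tRNA, had 171, 106 and 134 counts in si-SCR against 88, 75 and 77 in si-CyCoNP. Its normalised level was 41.4, 29.1 and 28.0 CPM in si-SCR against 17.9, 17.1 and 18.3 CPM in si-CyCoNP. Replicate 1 stood above the other controls, whereas the si-CyCoNP libraries were close together and below all controls. The log2 fold change was -0.88 ± 0.163 (SE; edgeR, adjusted p = 0.000141), and it passed the threshold in all 15 alternatives, between -0.998 and -0.68. Relative to MT-ND2, which lies directly before it, the ratio of counts was 0.00693 ± 0.000954 in si-SCR against 0.00405 ± 8.42e-05 in si-CyCoNP (SD, n = 3; exact permutation test, two-sided, p = 0.1), without overlap.

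MT-TP, the proline tRNA of the light-strand unit, had 17, 29 and 30 counts in si-SCR against 17, 14 and 13 in si-CyCoNP. Once scaled, the levels were 4.12, 7.95 and 6.27 CPM in si-SCR against 3.46, 3.19 and 3.09 CPM in si-CyCoNP, so the groups did not overlap but replicate 1 of si-SCR lay close to the si-CyCoNP libraries. The log2 fold change was -0.89 ± 0.338 (SE; edgeR, adjusted p = 0.0483). The call rests on few counts and was held in 5 of 15 alternatives. It was lost when any library other than replicate 1 of si-SCR was left out, at the most without replicate 2 of si-SCR, where the estimate was -0.68 (edgeR, adjusted p = 0.226), and DESeq2 gave an adjusted p of 0.117.

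MT-TI, the isoleucine tRNA, had 145, 106 and 98 counts in si-SCR against 73, 119 and 78 in si-CyCoNP, and replicate 2 of si-CyCoNP lay among the controls. The log2 fold change was -0.48 ± 0.198 (SE; edgeR, adjusted p = 0.0709), and 4 of 15 alternatives passed the threshold, among them the fits without replicate 3 of si-SCR (-0.68; edgeR, adjusted p = 0.000401) and without replicate 2 of si-CyCoNP (-0.75; edgeR, adjusted p = 0.0107). MT-TQ, the glutamine tRNA, had 19, 10 and 16 counts in si-SCR against 15, 22 and 10 in si-CyCoNP, with overlapping groups and a log2 fold change of -0.04 with a 95% interval of -0.83 to 0.75 (edgeR, adjusted p = 0.958). The estimate of MT-TQ turned sign in 5 of 15 alternatives. Whether MT-TT and MT-TW changed more than MT-TI or MT-TQ was not tested.

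**Figure D4:**
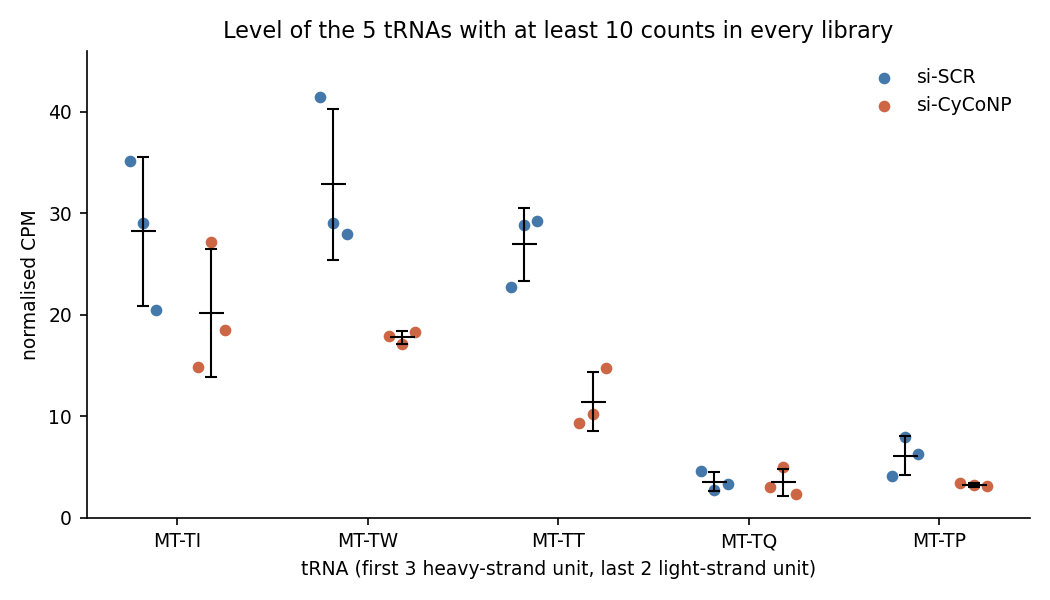
Normalised level (CPM on TMM-scaled library totals, vertical axis starting at 0) of the 5 tRNAs with at least 10 counts in every library, for each si-SCR and si-CyCoNP library, with the mean and SD of each group. The si-CyCoNP points of MT-TW, MT-TT and MT-TP lie below all si-SCR points, and those of MT-TI and MT-TQ overlap with the controls.

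The other 9 tRNAs tested held between 2 and 41 counts over the 6 libraries, and none changed (edgeR, smallest adjusted p = 0.227). They pass the filter because FPKM is high for a gene of this length even with very few counts. MT-TA, the alanine tRNA, had 8, 14 and 5 counts in si-SCR against 3, 8 and 3 in si-CyCoNP, with a log2 fold change of -1.05 ± 0.621 (SE; edgeR, adjusted p = 0.227). MT-TS1, a serine tRNA, had 4, 3 and 6 counts against 5, 0 and 0, and MT-TY, the tyrosine tRNA, had 1, 6 and 2 against 1, 4 and 1. In MT-TF (phenylalanine), MT-TV (valine), MT-TM (methionine), MT-TD (aspartate), MT-TS2 (serine) and MT-TE (glutamate) at least 1 group had no library above 3 counts, so that no fold is given. The 9 together had 22, 30 and 22 counts in si-SCR against 14, 15 and 10 in si-CyCoNP, which separates the groups in raw counts.

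High tRNA counts were found where unannotated sequence follows the gene on its strand. A fragment that also touches a neighbouring gene on the same strand is not counted for either. Of the 14 tRNAs of the heavy-strand unit, MT-TI, MT-TW and MT-TT are followed by 70, 324 and 1192 bases before the next gene on their strand. They held 619, 651 and 492 counts over the 6 libraries, or 84.4% of all tRNA counts. The other 11 have at most 2 bases after them and held at most 16 counts each, with 6 at 0. In the light-strand unit the 4 tRNAs with over 1000 bases after them, MT-TP, MT-TQ, MT-TA and MT-TS1, held 120, 92, 41 and 18 counts, and the other 4 at most 15, with 2 at 0, one of them MT-TC with 31 free bases. Free bases before a gene, without any after it, did not come with high counts. MT-TF, MT-TE and MT-TY have 1192, 1213 and 1554 bases before them and held 16, 2 and 15 counts. MT-TM and MT-TD have 70 and 72 before them and held 4 and 9. MT-TP, MT-TQ and MT-TS1 have free bases on both sides. MT-TI and MT-TQ share 3 bases on opposite strands, where the strand of the fragment tells them apart.

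A fragment that lies wholly inside a tRNA gene, as one from a mature tRNA would, is counted whatever lies beside the gene, unless it also matches a nuclear copy. Such fragments are dropped for MT-TK of the heavy-strand unit and for MT-TQ, MT-TA, MT-TN and MT-TS1 of the light-strand unit. MT-TI, MT-TM, MT-TD, MT-TC and MT-TY lie in copied stretches for most of their length, and fragments within those parts are dropped as well. Copies shorter than 100 bases were not searched, so further tRNAs may be affected. The 11 heavy-strand tRNAs without free bases of this kind, MT-TK, MT-TM and MT-TD among them, had at most 16 counts over the 6 libraries. How far dropped fragments lowered these counts was not tested. The positions of fragments were not used here, so how many of the MT-TT, MT-TW and MT-TP counts reach beyond the gene was not tested.

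**Figure D5:**
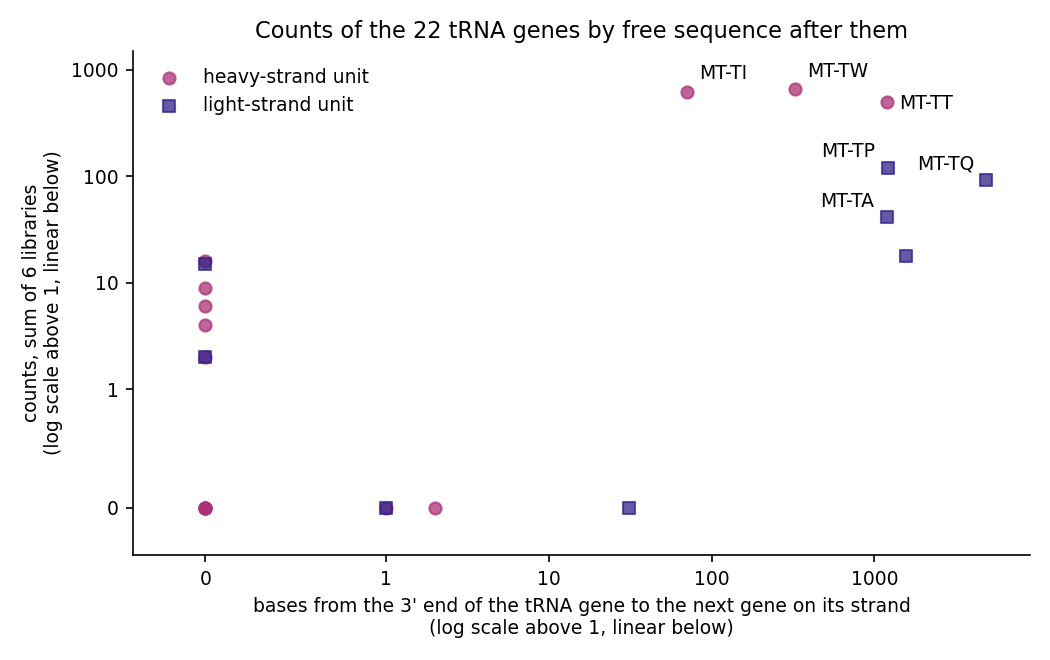
Counts of the 22 tRNA genes summed over the 6 libraries (vertical axis) against the number of bases from the 3′ end of the gene to the next gene on the same strand (horizontal axis), both on a log scale above 1 and linear below. Circles are tRNAs of the heavy-strand unit and squares those of the light-strand unit, and overlapping genes are drawn at 0. All genes with over 16 counts have 70 or more free bases, and the genes at 0 counts have at most 31.

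The rRNAs, MT-RNR1 of the small and MT-RNR2 of the large mitochondrial ribosomal subunit, are normally among the most abundant RNAs of the cell, but ribosomal RNA was depleted from the RNA and its reads were discarded before alignment. What remained was 36, 16 and 33 counts of MT-RNR1 in si-SCR against 24, 26 and 17 in si-CyCoNP, and 89, 97 and 115 counts of MT-RNR2 in si-SCR against 111, 111 and 105 in si-CyCoNP. The groups overlapped for both. MT-RNR2 stood at 15.1 ± 1.65 FPKM in si-SCR, against 7175 ± 635 FPKM for MT-ND1, which lies behind it on the same strand (SD, n = 3). The log2 fold changes, -0.44 with a 95% interval of -1.07 to 0.19 for MT-RNR1 and 0.01 with one of -0.29 to 0.32 for MT-RNR2 (edgeR, adjusted p = 0.316 and 0.962), describe this remainder and not the rRNA of the cells.

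Nuclear genes that make, process and use the mitochondrial RNAs were listed beside the members. Their levels are given in normalised CPM. Over 10 lists, 236 genes were tested and 60 changed (25.4%, against 28.4% of all genes), 34 higher and 26 lower. Only NDUFA6 and SDHD passed a log2 fold change of 1 in either direction.

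Among 17 genes of mitochondrial transcription and DNA maintenance, 3 were higher and 2 lower, with a median log2 fold change of 0.09. POLRMT, the mitochondrial RNA polymerase, had 67.8 ± 2.99 CPM in si-SCR against 81.4 ± 5.56 CPM in si-CyCoNP (SD, n = 3) and rose by 0.26 (edgeR, adjusted p = 0.0493). TOP1MT, a mitochondrial topoisomerase, rose by 0.96 (edgeR, adjusted p = 0.00123) and TWNK, the replicative helicase, by 0.43 (edgeR, adjusted p = 0.0344). MGME1, an exonuclease of mitochondrial DNA, was at -0.42 and SSBP1, the single-stranded DNA binding protein, at -0.27 (edgeR, adjusted p = 0.0142 and 0.0363). TFAM, which packages the DNA and starts transcription, was at -0.04 with overlapping groups (edgeR, adjusted p = 0.806).

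Among 23 genes of RNA processing and turnover, 4 were higher and 2 lower, with a median of 0.15. LRPPRC, which stabilises mitochondrial mRNAs, had 325 ± 13.03 CPM in si-SCR against 416 ± 17.2 CPM in si-CyCoNP (SD, n = 3) and rose by 0.36 on the log2 scale (edgeR, adjusted p = 0.000847), while its partner SLIRP was at 0.00 with overlapping groups. FASTKD5, FASTKD3 and ANGEL2 were higher, at 0.43, 0.59 and 0.35, and GRSF1, an RNA-binding protein of mitochondrial RNA granules, was lower, at -0.55 (edgeR, adjusted p = 9.53e-06). Of the 3 subunits of RNase P, HSD17B10 was lower, at -0.26 (edgeR, adjusted p = 0.0386), and TRMT10C and PRORP did not pass the test, at 0.30 and 0.32 (edgeR, adjusted p = 0.0677 and 0.304). ELAC2, which cuts the 3′ end, was at 0.15 (edgeR, adjusted p = 0.387).

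Of the 24 genes of tRNA and rRNA modification 23 were tested, with 5 higher (YRDC, GTPBP3, RPUSD4, NSUN2 and QTRT2), 3 lower (NSUN3, MTO1 and METTL15) and a median of 0.15. Of 22 aminoacyl-tRNA synthetase and amidotransferase genes tested of 23, 4 were higher (KARS1, AARS2, EARS2 and TARS2) and 2 lower (GARS1 and GATC), with a median of 0.00. TARS2, which charges MT-TT, was at 20.9 ± 4.73 CPM in si-SCR against 31.6 ± 3.33 CPM in si-CyCoNP (SD, n = 3), higher by 0.58 on the log2 scale (edgeR, adjusted p = 0.00684). WARS2, which charges MT-TW, was at 0.47 (edgeR, adjusted p = 0.0646) and PARS2, which charges MT-TP, at 0.45 with overlapping groups (edgeR, adjusted p = 0.482).

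Nuclear subunits of the complexes that hold the mitochondrially encoded proteins moved in both directions. For complex I 35 of 37 genes were tested, 5 were higher and 7 lower, with a median of -0.11. NDUFA6, an accessory subunit, fell from 140 to 52.5 CPM (log2 fold change -1.41; edgeR, adjusted p = 3.29e-11). Of 9 complex III genes 1 was higher (UQCR11) and 1 lower (UQCRC1), with a median of -0.07. Of 11 complex IV genes 1 was higher (NDUFA4) and 2 were lower, COX5A at -0.35 and COX5B at -0.30 (edgeR, adjusted p = 0.00258 and 0.0238), with a median of -0.14. Of 18 complex V genes 2 were higher (ATP5MC1 and ATP5PB) and 5 lower (ATP5F1B, ATP5MC2, ATP5F1C, ATP5MJ and ATP5F1E), with a median of -0.14.

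Complex II, which holds no mitochondrially encoded subunit, had 4 genes tested, of which SDHB was higher and SDHD lower, from 39.3 to 13.8 CPM (log2 fold change -1.51; edgeR, adjusted p = 1.78e-08), with a median of 0.00. Of 77 genes of mitochondrial ribosomal proteins 74 were tested, 8 were higher (MRPL42, MRPS34, MRPL4, MRPS30, MRPS27, MRPL17, MRPS25 and MRPL36) and only MRPS18C was lower, with a median of -0.02, so that 12.2% changed against 28.4% of all genes. With library totals alone as the scaling, the nuclear genes called lower over all lists dropped from 26 to 13 and those called higher went from 34 to 39.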

How the data were processed

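Total RNA of 6 libraries was depleted of ribosomal RNA and sequenced as stranded paired-end reads by the authors. Per the labels and the study's methods, reads were trimmed with Trimmomatic 0.39 and Cutadapt 3.2, ribosomal reads were removed with Bowtie2 2.4.2, and the rest was aligned to GRCh38 with STAR 2.7.7a. The deposited counts are whole fragments per Ensembl gene, where a fragment that maps to several places or touches several genes on its strand is dropped. The deposited FPKM values were made by the authors from the same counts. All 29 members with a count had the same length in both tables as in GENCODE release 44, which was used for positions. Single-exon genes inside exons of another gene had a count in 37.4% of 195 cases on the opposite strand and in 7.97% of 552 on the same strand. Libraries of a group were compared in pairs, and the scaled chi-square, near 1 for copies, was 2.56 to 5.69. Members and lists were chosen with earlier results of these data known.

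After TMM scaling, counts of genes that reached a mean FPKM of 1 or more in a group were tested by edgeR 4.0.16 (quasi-likelihood F-test, R 4.3.3), and p-values were adjusted after Benjamini and Hochberg over all of them. The script was tested on simulated data. Named were all members, LINC02381, up to 8 changed genes per nuclear list by smallest p, the synthetases of changed tRNAs and the 7 nuclear copies on chromosome 1. A few further nuclear genes (TFAM, SLIRP, TRMT10C, PRORP and ELAC2) were named after their values were seen. Alternatives were DESeq2 1.42.0, other scalings and filters, a replicate block, each library left out in turn, and limma 3.58.1 on log2(FPKM + 1). Intervals and limits on 0 counts do not cover PCR duplicates or fragments dropped because they also match a nuclear copy. Of 11 humanin-like nuclear gene symbols, none was matched to an identifier, and they are not analysed here. The values of 2 list genes are not reported here, and they enter only the summaries of their lists.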

Additional observations from a re-analysis of the deposited data

How the results depend on the processing

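The mRNAs lower in si-CyCoNP numbered 2 by edgeR, 1 with library totals alone or with library totals without the mitochondrially encoded genes, and 0 by limma on log2(FPKM + 1). DESeq2 gave 2. Leaving out a library gave between 1 and 9, with 9 without replicate 3 of si-SCR and 1 without replicate 2 of si-SCR, replicate 1 of si-CyCoNP or replicate 3 of si-CyCoNP. The nuclear list genes lower numbered 26, and 13 with library totals alone or without the mitochondrially encoded genes in them, with 13 to 30 when a library was left out (13 without replicate 1 or 2 of si-CyCoNP, 16 without replicate 2 of si-SCR). Over all genes limma called 1118 lower and 1765 higher, against 1990 and 1981 by edgeR. With protein-coding counts as the denominator the mRNA share was 8.51% in si-SCR and 7.91% in si-CyCoNP, the tRNA share 0.0110% in si-SCR, and the rRNA share 0.00328% and 0.00323%. Replicate numbers were shared by the groups, but same-numbered libraries deviated together only weakly (r = 0.0907, 0.0727 and 0.108), although each library correlated best with its own number. With the replicate number as a block, 5 mRNAs and 4 tRNAs were lower. The share of all genes called lower is not given for the fits with a block or with a library left out. The counts from those fits are therefore not read as particular to the members. MT-TS1 reached -5.17 (edgeR, adjusted p = 0.0368) without replicate 1 of si-CyCoNP, since the other si-CyCoNP libraries hold no count of it, so the value depends on the prior count. No direction of a called value reversed, and the median log2 fold change of all genes shifted by 0.0664 with library totals. Of the tRNAs, 12 had at most 3 counts in every library, and a change in these was not detectable.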
